A study of Mus musculus with 26 samples.

Results

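The 9 genes described here are Tnfrsf21, Gpr179, Pcdha3, Slc4a3, Lmln, Espnl, Tbx4, Zhx2 and Erich5, out of 24682 gene symbols in the count files. They were chosen by their counts in sorted mouse germ cells, as the largest increases in libraries labelled Nkapl knockout over libraries labelled wild type, in pachytene spermatocytes or in round spermatids. The sorted values therefore stand as a description, without a test, and the tests below use whole testis, which took no part in the choice.

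Nkapl encodes a nuclear protein of germ cells related to NKAP, a regulator of transcription and RNA processing. Sox30 encodes an HMG-box transcription factor that round spermatids need. RNA was sequenced from sorted cells and whole testis of mice labelled 21 days of age, with the strain given as C57BL/6 for the whole testes. The groups were spermatocytes and spermatids from Nkapl knockout and from wild-type mice (2 libraries each), Nkapl knockout testis (2) and its wild type (3), testis homozygous for an Nkapl allele called TGdel (3) and its wild type (2), and Sox30 knockout testis (2) and its wild type (3). Neither the deleted parts of the knocked-out genes nor the relation of wild-type to mutant mice is stated.

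Testis libraries were grouped by the heading of their count column, and repeated columns were used once, so that 26 files gave 23 libraries. Of 18 testis files, 15 have as heading the code of another sample than the one they are recorded under. Heading and sample record name different groups for 4 libraries, namely Nkapl-set wild type 3, Sox30-set wild type 3, TGdel-set wild type 2 and TGdel 3. Which naming is right is not known here. Levels are given as CPM, counts scaled for library size within each set of libraries. Total counts ran from 16469667 to 40010106 per library. Nkapl itself measured 24.6 and 23.6 CPM in spermatids labelled knockout against 88.4 and 90.3 CPM in those labelled wild type. In spermatocytes it went against the labels, with 127 and 125 CPM in libraries labelled knockout and 90.1 and 86.0 CPM in libraries labelled wild type, so the labels are named as such throughout. In testis Nkapl measured 60.8 and 57.8 CPM in knockout libraries and 74.9, 79.5 and 79.9 CPM in wild-type libraries (log2 fold change -0.40 ± 0.05, SE; adjusted p = 2.96e-06, edgeR quasi-likelihood F test).

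Spermatocytes pass through the long prophase of meiosis, when homologous chromosomes pair and recombine, and the haploid round spermatids that follow rebuild the nucleus and start to form the acrosome and the flagellum. Both cell types transcribe many genes that other organs use for other purposes, so a transcript in germ cells need not carry its textbook role there. The members belong to such families. Tnfrsf21 is a death receptor of the tumour necrosis factor receptor family. Gpr179 is an orphan receptor that holds regulators of G protein signalling at the synapse of retinal ON bipolar cells. Pcdha3 is a clustered protocadherin of neurons, and Slc4a3 is a chloride and bicarbonate exchanger of heart and brain. Lmln is a zinc metalloprotease known from Drosophila as invadolysin, where it acts in mitosis and cell migration. Espnl is an espin-like protein of hair-cell stereocilia. Tbx4 is a T-box transcription factor of hindlimb and lung, and Zhx2 is a zinc-finger and homeobox protein that represses alpha-fetoprotein in adult liver. Erich5 encodes a glutamate-rich protein.

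RefSeq promoter windows on GRCm38.p6, from 250 bases before to 50 bases after the start site, were at hand for 6 of the 9 members. The windows shown belong to the 3 members called higher in Nkapl knockout testis (Lmln, Espnl and Slc4a3) and to the 2 members with the largest sorted differences in spermatids (Tnfrsf21 and Gpr179). Capitals mark matches to the searched motifs on either strand.
Lmln, chr16:33062271-33062570, plus strand: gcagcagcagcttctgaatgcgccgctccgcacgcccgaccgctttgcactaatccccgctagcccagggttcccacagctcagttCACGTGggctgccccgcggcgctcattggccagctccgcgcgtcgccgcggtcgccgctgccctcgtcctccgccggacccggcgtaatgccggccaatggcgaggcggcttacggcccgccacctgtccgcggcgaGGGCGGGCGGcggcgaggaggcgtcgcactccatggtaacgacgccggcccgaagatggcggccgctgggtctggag
Espnl, chr1:91321825-91322124, plus strand: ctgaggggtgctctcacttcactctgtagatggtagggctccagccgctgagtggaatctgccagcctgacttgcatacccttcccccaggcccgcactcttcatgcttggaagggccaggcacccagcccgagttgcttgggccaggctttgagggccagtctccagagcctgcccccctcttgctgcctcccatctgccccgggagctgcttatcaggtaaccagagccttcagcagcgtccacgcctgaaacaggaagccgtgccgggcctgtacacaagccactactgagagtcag
Slc4a3, chr1:75546212-75546511, plus strand: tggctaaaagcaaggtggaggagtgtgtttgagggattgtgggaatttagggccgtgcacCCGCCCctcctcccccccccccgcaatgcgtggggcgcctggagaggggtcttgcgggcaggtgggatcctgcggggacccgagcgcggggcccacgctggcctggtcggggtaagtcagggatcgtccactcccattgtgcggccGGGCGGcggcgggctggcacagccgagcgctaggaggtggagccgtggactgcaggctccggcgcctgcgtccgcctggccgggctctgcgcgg
Tnfrsf21, chr17:43016305-43016604, plus strand: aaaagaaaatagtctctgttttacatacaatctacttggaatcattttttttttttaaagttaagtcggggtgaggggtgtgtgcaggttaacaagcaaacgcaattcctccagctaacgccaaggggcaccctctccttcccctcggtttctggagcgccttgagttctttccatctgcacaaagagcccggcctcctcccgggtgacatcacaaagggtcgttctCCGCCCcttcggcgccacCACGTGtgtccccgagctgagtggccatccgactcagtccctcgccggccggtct
Gpr179, chr11:97352307-97352606, minus strand: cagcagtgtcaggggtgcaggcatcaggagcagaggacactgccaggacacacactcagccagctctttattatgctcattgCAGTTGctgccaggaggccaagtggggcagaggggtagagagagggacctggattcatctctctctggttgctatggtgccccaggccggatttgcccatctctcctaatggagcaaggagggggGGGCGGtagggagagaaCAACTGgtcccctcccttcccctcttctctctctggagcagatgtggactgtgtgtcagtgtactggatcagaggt

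The GC box (GGGCGG) was present in 5 of these 6 windows (all but Espnl), against 35.9% of 27025 RefSeq promoters of the same length. In Lmln, 2 GC boxes overlap, which is why their capitals run together. The E-box CACGTG was in 2, at -164 in Lmln and at -5 in Tnfrsf21 relative to the start site, against 7.24% of all promoters. The MYB core CAGTTG was in Gpr179 alone, at -168 and -26 (13.6% of all promoters). The TATA box letters TATAAA matched in Tbx4 alone, at -85 and on the other strand, as TTTATA (14.2%). The Tbx4 window, chr11:85896515-85896814, lies inside the annotated span of the gene. None of the 6 windows held the cAMP response element TGACGTCA (1.88%), the RFX motif GTTGCC (12.7%) or the SOX core CATTGTT (3.87%). The Lmln window was the richest in CpG, with 44 CpG and 73% GC, against a median of 7 CpG and 52.7% GC over all promoters, and Gpr179 had 2 CpG. These letter matches are descriptions of the windows only.

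In spermatocytes, libraries labelled knockout held more of 8 of the 9 transcripts without overlap with libraries labelled wild type, and 7 of 9 had a log2 fold change above 1. Among all 15805 genes tested, 3.26% passed that fold and 43.7% were higher without overlap (34.2% were lower). In spermatids all 9 were higher without overlap and 8 of 9 passed the fold, against 7.88% and 40.5% of all genes (39.3% were lower without overlap). The sorted contrasts chose the members, so nothing is read from these counts. Among genes passing the choice in spermatocytes, Pcdha3 was the last inside at a log2 fold change of 2.01, Cd74 ranked above it at 2.03 and is not a member, and Ankrd63 came next at 2.01. In spermatids Zhx2 was the last inside at 2.63 and Entpd8 the first outside at 2.63.

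Of the receptors, Tnfrsf21 had the largest difference of all members in both cell types, and Gpr179 was the second in spermatids and the seventh in spermatocytes. Tnfrsf21 measured 5.79 and 6.05 CPM in spermatocytes labelled knockout against 0.886 and 0.865 CPM in those labelled wild type. In spermatids it measured 11.2 and 12.9 CPM in libraries labelled knockout and 0.992 and 0.694 CPM in libraries labelled wild type. These are log2 fold changes of 2.75 and 3.83 in spermatocytes and in spermatids. Gpr179 measured 13.8 and 13.7 CPM in spermatocytes labelled knockout and 3.69 and 4.46 CPM in those labelled wild type (log2 1.76). Gpr179 in spermatids measured 25.8 and 22.8 CPM with the knockout label and 2.74 and 3.01 CPM with the wild-type label (log2 3.08). Both receptors were thus higher in spermatids than in spermatocytes among libraries labelled knockout, while among libraries labelled wild type Tnfrsf21 overlapped between the cell types and Gpr179 was lower in spermatids.

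Among the other membrane proteins, Slc4a3 differed without overlap in spermatids but not in spermatocytes. Its 3.18 and 2.58 CPM in spermatocytes labelled knockout overlapped the 2.61 and 2.37 CPM in those labelled wild type (log2 0.21). In spermatids it measured 2.12 and 3.27 CPM in libraries labelled knockout and 0.525 and 0.116 CPM in libraries labelled wild type, a log2 fold change of 3.05 that rests on few wild-type counts and ran from 2.32 to 4.44 when a single library was left out. Its spermatid difference is a low level in libraries labelled wild type beside much the same level in the other 3 sorted groups. Pcdha3, on chromosome 18 at 36946105 to 37187657, measured 1.72 and 2.58 CPM in spermatocytes labelled knockout and 0.467 and 0.592 CPM in those labelled wild type (log2 2.01). In spermatids it measured 6.36 and 5.97 CPM with the knockout label and 0.934 and 1.21 CPM with the wild-type label (log2 2.51). Of its exonic bases, 2860 (53.6%) are shared with the other Pcdha genes of the cluster, so its counts depend on how shared reads were assigned. Its cluster neighbour Pcdha2 was the most abundant of the cluster in sorted cells, with a mean of 25.5 ± 2.45 CPM in spermatocytes labelled knockout and 15.2 ± 1.63 CPM in those labelled wild type (SD, n = 2 each). Pcdha1 and Pcdha12 ran the other way there, at 0.493 ± 0.113 and 0.182 ± 0.0379 CPM with the knockout label and 1.01 ± 0.308 and 0.393 ± 0.105 CPM with the wild-type label.

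Lmln, the protease gene, and Espnl, the espin-like gene, were the members with a larger difference in spermatocytes than in spermatids. Lmln measured 42.5 and 43.5 CPM in spermatocytes labelled knockout against 11.2 and 8.51 CPM in those labelled wild type (log2 2.13). Its spermatid values were 5.90 and 6.94 CPM with the knockout label and 3.44 and 3.53 CPM with the wild-type label (log2 0.88). Espnl measured 5.53 and 4.29 CPM in spermatocytes labelled knockout and 1.07 and 1.23 CPM in those labelled wild type (log2 2.08). Espnl in spermatids measured 2.23 and 2.75 CPM with the knockout label and 0.701 and 0.752 CPM with the wild-type label (log2 1.77). For both genes the spermatid values were lower than the spermatocyte values under either label.

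The transcription factor genes and Erich5 had low counts in libraries labelled wild type. On GRCm38, Tbx4 spans chr11:85886422-85916097, Zhx2 spans chr15:57694665-57839832 and Erich5 spans chr15:34453305-34473892, all on the plus strand. Tbx4 measured 1.93 and 2.53 CPM in spermatocytes labelled knockout and 1.31 and 1.18 CPM in those labelled wild type (log2 0.84). In spermatids it measured 4.13 and 4.65 CPM with the knockout label and 0.701 and 0.463 CPM with the wild-type label (log2 2.90). The Tbx4 groups did not overlap in either cell type. Zhx2 measured 2.08 and 2.33 CPM in spermatocytes labelled knockout and 0.513 and 0.774 CPM in those labelled wild type (log2 1.76). Zhx2 in spermatids measured 5.90 and 6.42 CPM with the knockout label and 0.934 and 1.04 CPM with the wild-type label (log2 2.63). Erich5, also without overlap, measured 2.45 and 2.27 CPM in spermatocytes labelled knockout and 0.467 and 0.546 CPM in those labelled wild type (log2 2.21). Spermatids measured 8.08 and 7.46 CPM with the knockout label and 1.11 and 1.27 CPM with the wild-type label (log2 2.70). All 3 genes had their highest sorted level in spermatids labelled knockout.

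**Figure D1:**
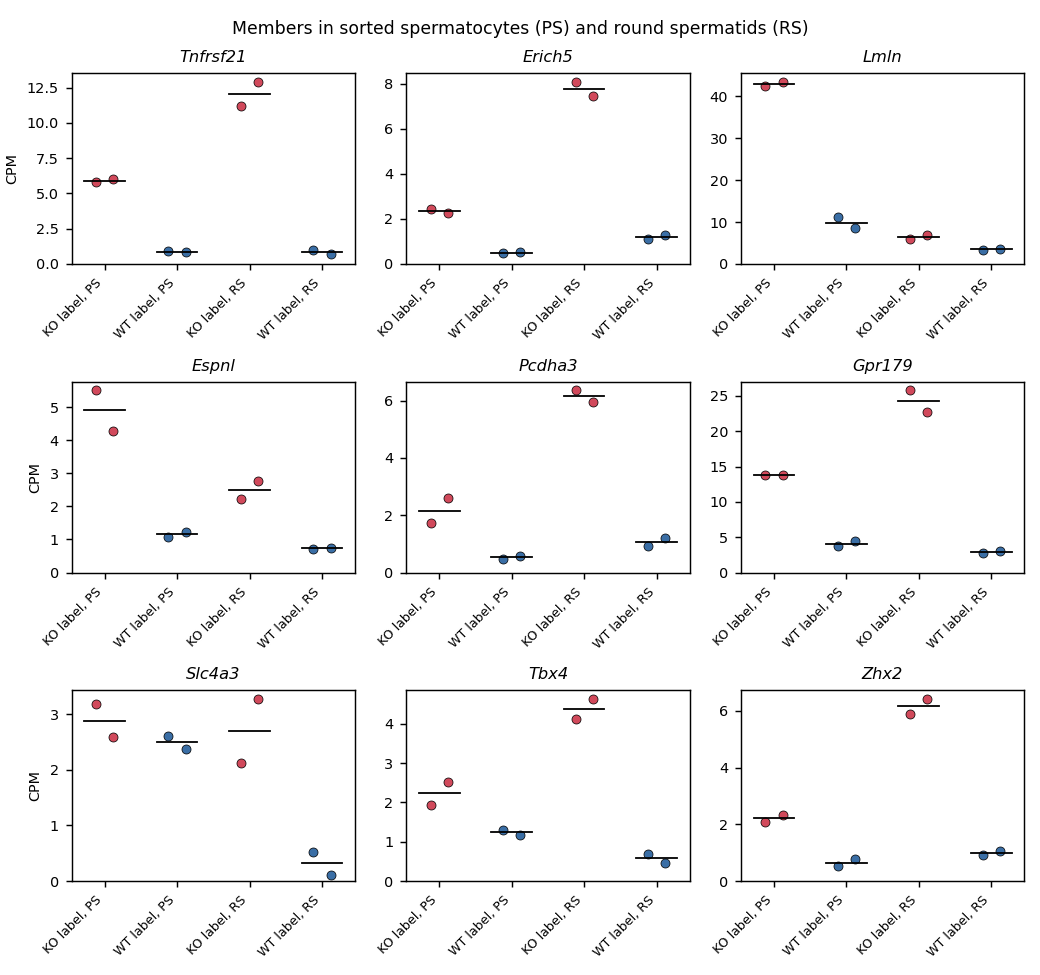
CPM (linear y axes) of the 9 members in single sorted libraries, with points for libraries and bars for group means; libraries labelled knockout are red and stand left of those labelled wild type in blue. Red and blue points overlap for Slc4a3 in spermatocytes and for no other gene. The red Lmln points are at 42.5 and 43.5 in spermatocytes and at 5.90 and 6.94 in spermatids.

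Cell type markers moved with the sorted labels. Round spermatid markers summed to 2444 to 2472 CPM in spermatids labelled knockout and 7522 to 7769 CPM in those labelled wild type, and 10 of 11 were below both wild-type values. In spermatocytes the sums were 973 to 977 CPM with the knockout label and 2346 to 2469 CPM with the wild-type label (11 of 11 lower). Prm1, Prm2, Tnp1 and Tnp2 weighed most in the sums of libraries labelled wild type. Prm2 measured 128 to 149 CPM in spermatids labelled knockout and 1550 to 1571 CPM in those labelled wild type. Acrv1 differed less there, at 302 to 307 and 350 to 353 CPM, and Spaca4 was higher with the knockout label. The sum in spermatocytes labelled wild type was near that in spermatids labelled knockout, but Acrv1 was at 124.9 to 127.5 CPM in those spermatocytes. Pachytene markers summed to 3703 to 3764 CPM in spermatocytes labelled knockout and 2893 to 3035 CPM in those labelled wild type, and to 2430 to 2444 CPM and 2270 to 2386 CPM in spermatids with the knockout and the wild-type label (7 of 10 higher in spermatocytes and 8 of 10 in spermatids). Somatic markers were low but unequal in spermatids. Sertoli markers there summed to 30.4 to 32.15 CPM with the knockout label and 24.98 to 26.62 CPM with the wild-type label (2 of 11 higher, 2 lower). Leydig markers summed to 22.6 to 23.6 CPM with the knockout label and 9.63 to 9.71 CPM with the wild-type label (7 of 8 higher, Lhcgr at 0 in wild type), macrophage markers to 36.3 CPM with the knockout label and 18.1 to 18.4 CPM with the wild-type label (7 of 8 higher), and myoid and stromal markers to 46.1 to 49.5 and 25.04 to 25.7 CPM (5 of 8 higher). In spermatocytes Sertoli markers summed to 155 to 156.5 CPM with the knockout label and 221 to 233 CPM with the wild-type label (0 of 11 higher, 8 lower), and Leydig markers to 62.6 to 66.7 CPM and 46.6 to 47.3 CPM (6 of 8 higher). Macrophage sums overlapped in spermatocytes, at 9.80 to 10.08 and 10.06 to 11.34 CPM (5 of 8 higher, 2 lower). Myoid and stromal sums there were 14.29 to 15.45 and 12.2 to 12.92 CPM (4 of 8 higher, 2 lower). Spermatogonial, endothelial and epididymal lists stood at 58.2 to 59.4, 17.2 to 18.4 and 69.0 to 70.6 CPM in spermatids labelled knockout, against 47.4 to 48.7, 18.4 to 19.4 and 143 to 161 CPM in those labelled wild type. By single genes, 5 of 10 spermatogonial markers were above both wild-type values and 2 below, 2 of 5 endothelial ones above and 1 below, and 3 of 8 epididymal ones above and 1 below. The epididymal sum was mostly Cst8, at 56.0 to 59.5 CPM with the knockout label and 137 to 154 CPM with the wild-type label. Their part in the members' values was not tested, and fewer cells of a type and less RNA per cell cannot be told apart in such libraries.

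In Nkapl knockout testis the members split. Lmln, Espnl and Slc4a3 rose, Erich5 fell, and the other 5 did not pass the test, so that 3 of 9 were called higher and 1 of 9 lower, in a comparison that called 43.9% of 16937 genes tested (17.8% higher and 26.1% lower). Of the 9, 5 were higher and 3 lower without overlap of the groups, against 29.5% and 32.9% of all genes. Their median log2 fold change was 0.21, against 0.01 over all genes tested. Calls here and below are edgeR quasi-likelihood F tests with Benjamini-Hochberg adjusted p under 0.05, two-sided, fitted over all genes.

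Lmln measured 74.2 and 77.5 CPM in knockout testis against 44.6, 45.5 and 44.9 CPM in wild-type testis. The groups lay far apart relative to their spread, at 75.8 ± 2.29 CPM in knockout (SD, n = 2) against 45.02 ± 0.419 CPM in wild type (n = 3), and the log2 fold change was 0.75 ± 0.05 (SE, adjusted p = 5.64e-10, edgeR). Espnl measured 6.57 and 6.69 CPM in knockout testis against 4.04, 4.73 and 4.96 CPM in wild-type testis, again without overlap (log2 0.53 ± 0.14, adjusted p = 0.00569, edgeR). Slc4a3 measured 27.6 and 30.9 CPM in knockout testis against 25.5, 26.3 and 24.2 CPM in wild-type testis (log2 0.21 ± 0.07, adjusted p = 0.0218, edgeR). The Slc4a3 call was lost with DESeq2 (adjusted p = 0.0797), with all testis libraries in one edgeR fit (0.276), without wild type 3 (0.104) and without knockout 2 (0.326), and the Espnl call was lost in the fit of all testis libraries (0.0774). Grouping by file record, which puts wild type 3 among the knockouts, ended every call, at edgeR adjusted p = 0.629 for Lmln and Espnl, 0.728 for Slc4a3 and 0.635 for Erich5.

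Erich5 went the other way from sorted cells. It measured 0.486 and 0.228 CPM in knockout testis against 1.41, 1.41 and 1.52 CPM in wild-type testis, from 10 and 6 counts in knockout against 31, 32 and 34 counts in wild type. The log2 fold change was -2.06 ± 0.38 (SE, adjusted p = 0.000282, edgeR), and it ran from -2.64 to -1.56 when a single library was left out. Erich5 is thus the member with the largest change in testis and the lowest level in it.

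The remaining members did not pass in Nkapl knockout testis. The receptor Tnfrsf21 measured 12.6 and 12.4 CPM in knockout testis against 11.3, 11.6 and 9.26 CPM in wild-type testis, a log2 fold change of 0.23 with an interval of 2 SE from 0.0037 to 0.45 (adjusted p = 0.112, edgeR). Gpr179 measured 10.4 and 12.5 CPM in knockout and 11.6, 12.3 and 11.1 CPM in wild type, with a log2 interval from -0.24 to 0.20 (adjusted p = 0.911, edgeR). Zhx2 measured 12.4 and 14.1 CPM in knockout and 10.1, 12.02 and 11.6 CPM in wild type, with an interval from 0.03 to 0.46 (adjusted p = 0.0786, edgeR). For Pcdha3 the values were 5.40 and 6.00 CPM in knockout testis and 6.22, 8.57 and 7.02 CPM in wild-type testis, with an interval from -0.65 to -0.05 (adjusted p = 0.0714, edgeR). Tbx4 measured 1.80 and 1.94 CPM in knockout and 2.41, 2.52 and 1.97 CPM in wild type, with an interval from -0.74 to 0.15 (adjusted p = 0.308, edgeR). Without wild type 2, Tnfrsf21 and Zhx2 were called higher (adjusted p = 0.0452 and 0.0348, edgeR), and without wild type 1 Pcdha3 was called lower (0.0178). Gpr179 alone of these 5 overlapped between the groups.

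Cell type markers differed between these testes, where fewer cells of a type and less RNA per cell cannot be told apart either. Round spermatid markers summed to 75.5 to 77.2 CPM in knockout testis, with Prm1, Prm2 and Tnp2 at 0, against 190 to 230 CPM in wild type. These genes were near 0 in wild type too, with Prm1 at 0.0447 to 0.136, Prm2 at 0.409 to 0.574 and Tnp2 at 0.133 to 0.681 CPM. Sertoli markers summed to 1872 to 1968 CPM in knockout and 1566 to 1602 CPM in wild type, spermatogonial markers to 320 to 331 CPM in knockout and 256 to 264 CPM in wild type, and pachytene markers to 3528 to 3611 CPM in knockout and 3677 to 3760 CPM in wild type. Single pachytene markers went both ways. Without overlap, Sycp1, Sycp2, Hormad1 and Mlh3 were higher in knockout, and Spo11, Pgk2, Ccna1 and Adam2 were lower. Sycp3 and Piwil1 overlapped. Sycp2 measured 1021 to 1060 CPM in knockout and 964 to 1000 CPM in wild type, and Pgk2 47.6 to 62.3 and 134 to 152 CPM. The ribosomal RNA precursor Rn45s took 5.53% and 5.29% of counts in knockout testis, against 3.96% to 3.97% in wild-type testis. Their part in the members' values was not tested.

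**Figure D2:**
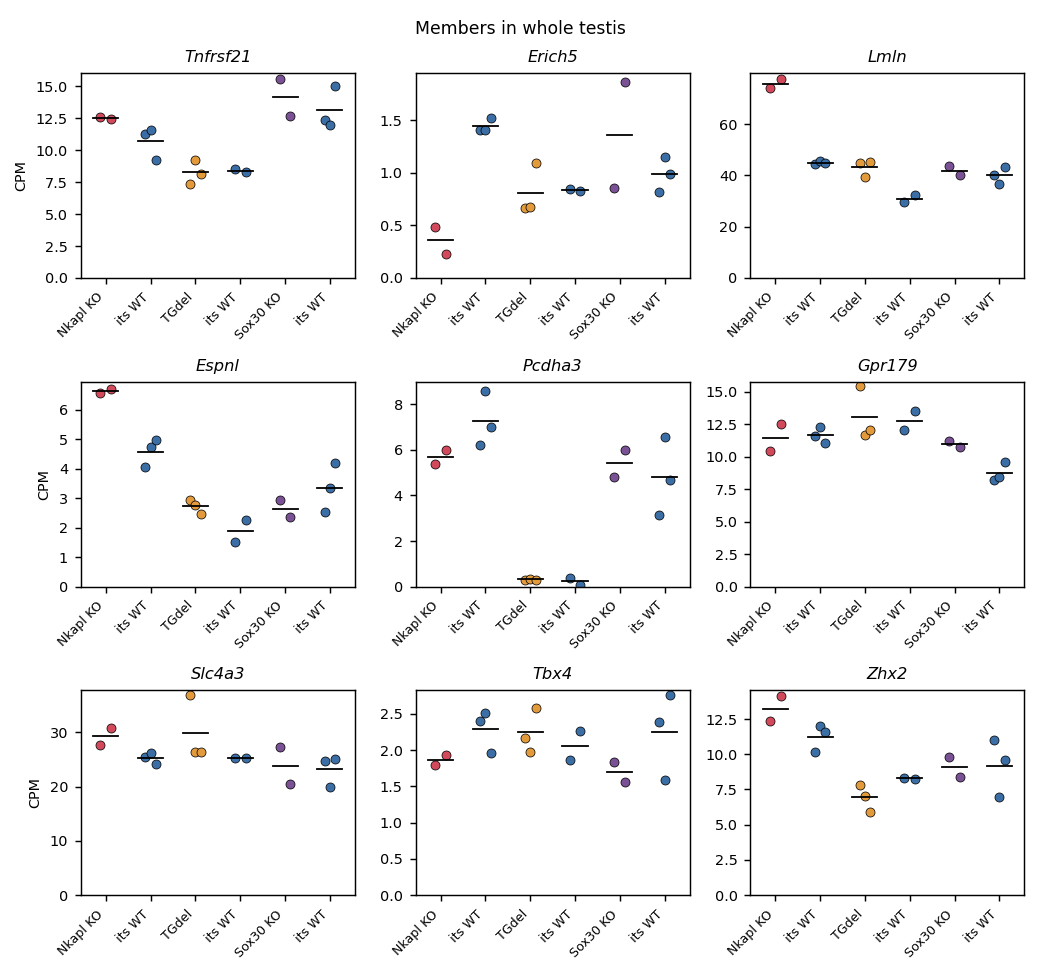
CPM (linear y axes from 0) of the 9 members in single whole-testis libraries, each mutant left of its own wild type in blue, with bars for group means. Lmln and Espnl of Nkapl knockout testis stand above all their wild-type points, Erich5 stands below them, and Pcdha3 is near 0 throughout the TGdel set.

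In TGdel testis edgeR called none of the 8 members that passed the filter on low counts, in a comparison that called 1.25% of 16011 genes (0.2% higher and 1.05% lower), and 1 had an unadjusted p under 0.05. That member was Lmln, with 44.7, 39.5 and 45.4 CPM in TGdel testis against 29.5 and 32.4 CPM in its wild type (log2 0.48 ± 0.10, SE; adjusted p = 0.0588, edgeR). DESeq2 called Lmln (adjusted p = 0.00938), as did the edgeR fit of all testis libraries (0.0149). Espnl measured 2.95, 2.77 and 2.47 CPM in TGdel testis against 1.52 and 2.26 CPM in its wild type (log2 0.53, adjusted p = 0.401, edgeR). Slc4a3 measured 36.9, 26.4 and 26.3 CPM in TGdel testis against 25.2 and 25.3 CPM in its wild type (log2 0.24, adjusted p = 0.524, edgeR). Without TGdel 1, the Slc4a3 log2 fold change was 0.062. Without overlap, 3 members were higher and 1 was lower (Zhx2), against 16.1% and 17.3% of all genes tested. The other members lay between log2 fold changes of -0.26 (Zhx2) and 0.12 (Tbx4), with Erich5 at -0.040, Tnfrsf21 at -0.025 and Gpr179 at 0.027.

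Pcdha3 did not pass the filter in the TGdel set, where it measured 0.301, 0.339 and 0.288 CPM in TGdel testis and 0.394 and 0.0551 CPM in its wild type. In the other testis sets it lay between 3.15 and 8.57 CPM. The low level was found in both groups of the TGdel set. TGdel 1 stood apart from the other TGdel libraries in Rn45s, which took 0.497% of its counts against 0.0598% to 0.0666% in TGdel 2 and 3 and 0.0689% to 0.0713% in wild type. In the Nkapl and Sox30 sets Rn45s took 2.775% to 5.53% of counts. The round spermatid markers of the TGdel set summed to 99.9 to 160 CPM in TGdel testis (Prm1 at 0) and 171 to 233 CPM in its wild type (Prm1 at 0.386 to 0.563). Leydig markers summed to 240 to 576 CPM in TGdel testis and 441 to 449 CPM in its wild type. Their part was not tested.

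In Sox30 knockout testis edgeR called none of the 9 members and none had an unadjusted p under 0.05, in a comparison that called 2.42% of 17816 genes (0.505% higher and 1.92% lower). DESeq2 also called none. Gpr179 was the one member without overlap, at 11.2 and 10.7 CPM in knockout testis against 8.21, 8.47 and 9.58 CPM in wild-type testis (log2 0.33 ± 0.14, adjusted p = 0.609, edgeR), while 9.85% of all genes were higher and 11.1% lower without overlap. Lmln measured 43.5 and 40.3 CPM in knockout and 40.1, 36.6 and 43.3 CPM in wild type, with a log2 interval of 2 SE from -0.15 to 0.29. Erich5 measured 0.855 and 1.87 CPM in knockout and 0.819, 1.15 and 0.990 CPM in wild type, and the other 6 lay between log2 fold changes of -0.40 (Tbx4) and 0.18 (Pcdha3). Sox30 itself measured 44.7 and 61.5 CPM in its knockout against 77.6, 86.2 and 72.4 CPM in wild type (log2 -0.57, adjusted p = 0.171, edgeR), and was called lower with DESeq2 (adjusted p = 0.0434) and in the edgeR fit of all testis libraries (0.0206). Round spermatid markers summed to 64.4 to 107 CPM in Sox30 knockout testis (Prm1 at 0) and 162 to 341 CPM in its wild type (Prm1 at 0.0291 to 7.61). Epididymal markers summed to 42.7 to 69.3 CPM in Sox30 knockout testis and 7.63 to 15.3 CPM in its wild type, where Lcn5 and Lcn9 were at 0. Their part in these values was not tested.

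**Figure D3:**
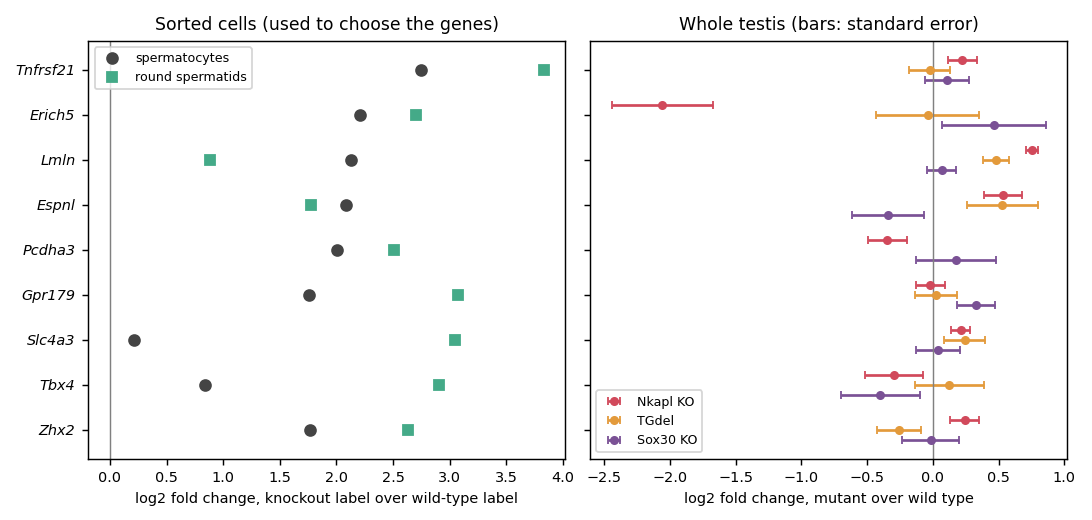
Log2 fold changes of the members, on the left panel in sorted cells as knockout label over wild-type label (no error bars, since these values chose the genes), and on the right panel in whole testis as mutant over wild type with standard errors. The sorted values are all above 0 and reach 3.83, whereas the testis values run from -2.06 (Erich5) to 0.75 (Lmln).

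Per kilobase of exon, Lmln was the most abundant member in Nkapl knockout testis at 11.7 ± 0.352 CPM per kilobase, followed by Slc4a3 at 3.40 ± 0.268, Tnfrsf21 at 3.04 ± 0.0300 and Zhx2 at 2.99 ± 0.284 (SD, n = 2). The libraries of Tnfrsf21 and Zhx2 overlap, and both libraries of Slc4a3 lie above them. Erich5 was last at 0.150 ± 0.0767. In spermatids labelled knockout the order was another, with Erich5 first at 3.26 ± 0.185, then Tnfrsf21 at 2.94 ± 0.288 and Gpr179 at 2.55 ± 0.227 CPM per kilobase, and Slc4a3 last at 0.313 ± 0.0945. In spermatocytes labelled knockout Lmln led again at 6.60 ± 0.105. CPM are scaled within a set, so levels of sorted cells and testis are set side by side without a test. On that footing Slc4a3 was at 19.9 to 36.9 CPM in all testis libraries and at most 3.27 CPM in sorted cells, while Gpr179, Erich5 and Tbx4 were highest in spermatids labelled knockout.

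Lmln lies on chromosome 16 at 33062521 to 33127695 (GRCm38, plus strand) and its intron between exons 13 and 14 of 17 holds the microRNA gene Mir1947, at chr16:33105361-33105445 on the same strand. The 85-base hairpin sits 519 bases after the exon before it and 1568 bases before the exon that follows. Mir1947 was chosen after its values were seen. Its mature arms are given because they are the part of the locus that could act apart from the Lmln protein, with seeds (bases 2 to 8) in capitals.
mmu-miR-1947-5p: aGGACGAGcuagcugagugcug
mmu-miR-1947-3p: gCACUGAGcuagcucucccucc

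Counts over the Mir1947 hairpin went the same way as Lmln in the sorted, Nkapl knockout and TGdel comparisons, but did not track its level over groups. TGdel-set wild type had means of 30.9 CPM for Lmln and 0.0275 CPM for Mir1947, and spermatids labelled knockout had 6.42 and 0.258 CPM. In the same sorted set, spermatocytes labelled wild type had 9.86 and 0.0233 CPM. The sets differ in Rn45s, which took 0.0689% of counts in TGdel-set wild type 1 and 3.96% in Nkapl-set wild type 1. CPM are scaled within a set, and the part of this in the levels over groups was not tested. There were 56 and 68 counts in spermatocytes labelled knockout against 1 and 0 counts in those labelled wild type. In spermatids there were 5 and 4 counts with the knockout label against 1 and 0 with the wild-type label. Lmln was chosen on these libraries, so the sorted counts of its intron are given without an interval. Nkapl knockout testis had 84 and 115 counts against 25, 26 and 19 counts in wild-type testis (log2 2.01 ± 0.21, SE; adjusted p = 5.21e-07, edgeR), against 0.75 for the Lmln exons; the difference between the folds was not tested. TGdel testis had 10, 14 and 19 counts against 0 and 1 in its wild type (ratio 29.9 after scaling, 95% counting interval 5.09 to 1208). The TGdel edgeR adjusted p was 0.0472 and was lost with DESeq2 (0.0751) and without any one of 4 of the 5 libraries (0.0794 to 0.497). Sox30 knockout testis had 38 and 22 counts against 34, 25 and 24 counts in wild-type testis (adjusted p = 0.9995, edgeR). Counts over the hairpin in these libraries do not separate the mature microRNA from the Lmln intron, and the interval covers counting error only.

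**Figure D4:**
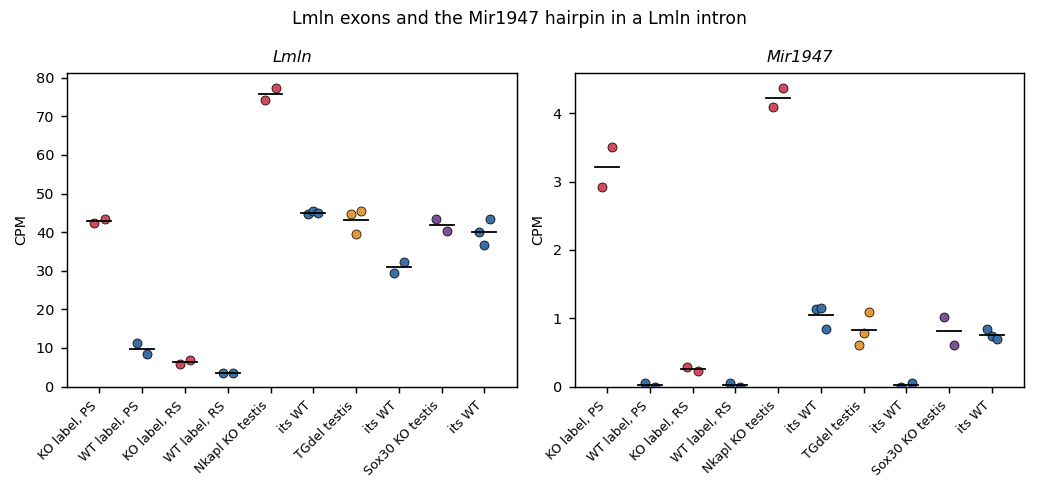
CPM (linear y axes from 0) of Lmln exons on the left panel and of the Mir1947 hairpin on the right panel in all 23 libraries, with knockout-labelled or mutant libraries left of wild-type ones and bars for group means. In spermatocytes both panels have the points labelled knockout above those labelled wild type, Nkapl knockout and TGdel testis lie above their wild types, and the Sox30 pair overlaps in both.

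Of the 18 genes next to the members, 12 were tested in Nkapl knockout testis and 5 rose (Cd2ap beside Tnfrsf21, Rida beside Erich5, Osbpl11 beside Lmln, Stk11ip beside Slc4a3 and Derl1 beside Zhx2), with none lower, against 17.8% of all genes called higher and 26.1% lower. Their log2 fold changes ran from 0.13 ± 0.05 (SE) for Derl1 to 0.72 ± 0.22 for Rida, which rose (adjusted p = 0.0147, edgeR) next to Erich5, which fell. Osbpl11, which follows Lmln, rose by 0.21 ± 0.04 (adjusted p = 0.000935, edgeR) against 0.75 for Lmln. In sorted cells 1 of 14 tested neighbours passed a log2 fold change of 1, which was Klhl30 beside Espnl at 1.23 in spermatids, where 7.88% of all genes passed it.

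Genes of the members' families were counted in Nkapl knockout testis, where 17.8% of all genes were higher and 26.1% lower. Of 14 genes of death-domain receptor signalling, 2 were higher and 2 lower: App, whose product is a reported ligand of Tnfrsf21, rose (226 ± 8.99 CPM in knockout against 181 ± 2.80 CPM in wild type, SD; log2 0.32, adjusted p = 1.66e-06, edgeR), as did the decoy receptor gene Tnfrsf11b (log2 0.92, adjusted p = 0.00387). The neurotrophin receptor gene Ngfr fell to 2.32 ± 0.110 CPM in knockout testis, against 11.9 ± 0.404 CPM in wild type (log2 -2.36 ± 0.14, adjusted p = 2.37e-10, edgeR), and Edar fell (log2 -1.27, adjusted p = 0.00558). Ngfr also fell in TGdel testis, to 3.31 ± 0.234 CPM, against 15.5 ± 3.19 CPM in its wild type (log2 -2.23 ± 0.18, adjusted p = 0.00530, edgeR), a call lost without TGdel 2 (0.0770), without wild type 1 (0.0797) and by file record (1). Of 9 other Slc4 genes, 8 were tested, of which the exchanger gene Slc4a2 (log2 0.26) and Slc4a11 (0.84) rose and Slc4a1 (-1.74) and Slc4a7 (-0.14) fell. Slc4a1 was low in both groups, at means of 0.395 CPM in knockout and 1.30 CPM in wild type. Of 13 other protocadherin alpha genes, 9 were tested and Pcdha2 alone changed, falling by 0.32 on the log2 scale (adjusted p = 0.0141, edgeR).

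Of 16 other T-box genes, 9 were tested, of which Tbx1 (log2 0.39) and Mga (0.11) rose and Tbx19 (-1.67) fell. Tbx19 was low in both groups, at means of 0.284 CPM in knockout and 0.895 CPM in wild type. Of 6 genes of the Zhx family and the liver targets of Zhx2, Gpc3 (0.38), H19 (0.42) and Zhx3 (0.10) rose and Homez (-0.47) fell. Of 10 espin and stereocilium genes, 8 were tested and 3 fell, with none higher: the mechanotransduction channel gene Tmc1 (log2 -1.68 ± 0.13, adjusted p = 5.60e-09, edgeR), Whrn (-0.54) and Espn (-0.12). Of 11 genes of the ON bipolar cascade of Gpr179, 7 were tested, of which Gnb5 rose (0.44) and Trpm1 (-0.45) and Gpr158 (-3.46 ± 0.87, SE) fell. Gpr158 was near 0, at means of 0.0433 CPM in knockout and 0.524 ± 0.276 CPM (SD) in wild type, so its fold rests on few counts. Ngfr was the single gene of these 7 lists called in TGdel testis, and none was called in Sox30 knockout testis. These counts are to be read against the 43.9% of all genes called in Nkapl knockout testis.

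Over the 10 group means of log2(CPM + 1), Gpr179 and Tbx4 were among each other's 3 most alike genes of 15000 candidates (Pearson r = 0.93). Tnfrsf21 and Zhx2 also ran together (r = 0.93), while Erich5 and Lmln ran apart (r = -0.40). The most alike genes were Rab11fip4 for Tnfrsf21 (0.96), Ccl26 for Erich5 (0.97), Tmem150a for Lmln (0.99), Pcif1 for Espnl (0.97), Qrich1 for Pcdha3 (0.97), Ate1 for Gpr179 (0.96), Snhg11 for Slc4a3 (0.997) and Robo4 for Zhx2 (0.99). These values describe 10 groups that share library sets, and the step between sorted cells and testis enters each r. The 4 sorted groups that chose the members are among the 10, so likeness between members, as of Gpr179 and Tbx4, is in part fixed by the choice.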

How the data were processed

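Raw read counts per gene symbol were deposited by the authors, whole numbers without scaling. The submitters' processing notes name mm10 and the tools HTSeq, DESeq2 and HISAT2 2.1.0. Annotation and strandedness of the counting were not given in the sources used here. Counts of overlapping or near-identical genes are uncertain for that reason. HTSeq's summary lines (18.8% to 24.6% of lines in sorted libraries) stayed out of library sizes and tests. Genes were filtered with edgeR 4.0.16's filterByExpr (minimum count 10, total 15), scaled by TMM and tested by the quasi-likelihood F test (R 4.3.3). Fits were made per testis set and once for the 8 sorted libraries. DESeq2 1.42.0 was an alternative. The planned design assumed 3 libraries a group, but repeated columns left 2 or 3. The series text speaks of biological triplicates, and nothing ties the 2 sorted libraries of a group to separate animals. P-values measure the spread between libraries, and depth limits the members with few counts. The members, family lists, marker lists and rule for named genes (all members, Nkapl, Sox30, up to 4 called genes of a family list by smallest p, neighbours, and the 3 genes most alike over groups, of which the first is printed) were chosen with earlier results of these data known. The fit was tested on simulated data. Sequences and gene positions came from RefSeq GRCm38.p6 and GENCODE annotation of GRCm38.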

Additional observations from a re-analysis of the deposited data

Results flagged for a closer look

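Erich5, Pcdha3 and Tbx4 moved one way in every sorted library and the other way in every Nkapl knockout testis library, and the difference between the contrasts was not tested. Erich5 had a log2 fold change of -2.06 in Nkapl knockout testis, against 2.21 in sorted spermatocytes and 2.70 in sorted spermatids. Pcdha3 stood at -0.35 in testis, against 2.01 in spermatocytes and 2.51 in spermatids. Tbx4 stood at -0.29 in testis, against 0.84 in spermatocytes and 2.90 in spermatids. The testis values of Pcdha3 and Tbx4 did not pass the test, and the sorted values chose all 3 genes. Levels of round spermatid markers also differed between the 2 materials. Prm1 measured 1055 to 1115 CPM in spermatids labelled wild type and 0.0447 to 0.136 CPM in Nkapl-set wild-type testis. Acr measured 381 to 403 CPM in those spermatids and 103 to 107 CPM in that testis. The part of this in the opposite directions was not tested.

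Reads assigned to no gene, which take no part in the comparisons, made up 23.3% of lines in spermatocytes labelled knockout against 20% and 18.8% in the libraries labelled wild type, and 24.5% in spermatids labelled knockout against 19.4% in both libraries labelled wild type.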

How the results depend on the processing

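With the alternatives tried, counts of called genes moved more than the members did. By file record no gene was called in any comparison: 0 higher and 0 lower in the Nkapl knockout, Sox30 knockout and TGdel sets, with 415, 1202 and 187 genes at an unadjusted p under 0.05, and members called fell to 0 in the Nkapl set. With all testis libraries in one fit, 833 genes were higher and 2518 lower in the Nkapl set (1 member higher), 183 and 713 in the Sox30 set and 205 higher in the TGdel set (1 member higher). DESeq2 called 137 higher and 628 lower in the Sox30 set, and 211 higher and 365 lower in the TGdel set (1 member higher). With libraries whose record and heading agree, 610 were lower in the Sox30 set, and 8 higher and 320 lower in the TGdel set. Without the filter on low counts, the TGdel set had 12 higher and 76 lower. Leaving out a library gave 1816 to 3169 higher and 3617 to 4279 lower in the Nkapl set (2 to 5 members higher, 1 to 2 lower), 12 to 83 and 7 to 610 in the Sox30 set, and 0 to 99 and 0 to 405 in the TGdel set. The libraries whose absence moved a count by over 1.5 times were knockout 2 for genes, and wild type 1 and 2 for members, in the Nkapl set, knockout 1 and 2 and wild type 1 and 3 in the Sox30 set, and all 5 libraries of the TGdel set. A lone library was assumed to vary like the other group.

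Replicate numbers, taken from the headings, gave little sign of pairing in the Nkapl set (correlations of deviations 0.038 and 0.023) and the TGdel set (-0.060 and -0.061). In the Sox30 set the correlations were 0.055 and 0.36, and whether its libraries pair is not settled by them. The main fit of the Sox30 set had no block and called 90 genes higher and 342 lower. With the replicate number as a block, 2206 genes were higher and 3930 lower in the Nkapl set (2 members higher, 1 lower), 358 and 1370 in the Sox30 set, and 0 and 0 in the TGdel set. Under the block Slc4a3 was not called (adjusted p = 0.0934, edgeR). Under the block Sox30 was called lower in its own knockout (adjusted p = 2.46e-07, edgeR).

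Log2 fold changes that turned direction had no call in the main fit, apart from Mir1947 in the TGdel set. Their main values in the Sox30 set included 0.46 for Erich5, -0.40 for Tbx4 and -0.34 for Espnl. By file record, the turned values were 0.107 for Espnl, 0.0456 for Tbx4, 0.0450 for Zhx2 and -0.0273 for Mir1947 in the Sox30 set. In the TGdel set they were -0.0575 for Tbx4, 0.115 for Zhx2, -0.0537 for Nkapl, -0.0843 for Sox30 and -0.178 for Mir1947. Zhx2 in the Sox30 set was 0.0053 with agreeing libraries and 0.0457 with the replicate block, and Gpr179 in the Nkapl set was 0.0071 in one fit of all testis libraries. Leaving out a library gave -0.17 to 0.10 for Gpr179 in the Nkapl set. In the Sox30 set it gave -0.0475 to 0.252 for Tnfrsf21, -0.20 to 0.92 for Erich5, -0.0588 to 0.468 for Pcdha3, -0.18 to 0.23 for Slc4a3, -0.18 to 0.14 for Zhx2, -0.19 to 0.11 for Nkapl and -0.31 to 0.41 for Mir1947. In the TGdel set it gave -0.119 to 0.0522 for Tnfrsf21, -0.314 to 0.0815 for Erich5, -0.11 to 0.11 for Gpr179 and -0.0086 to 0.273 for Tbx4. The cause was not tested. Sorted log2 fold changes moved by more than their spread in 15 of 144 repeats and none changed sign.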
